A study of Bos taurus with 79 samples.

Results

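The constitutive proteasome genes were followed in the endometrium of beef heifers, in cyclic animals and in early pregnancy. They were taken as the probe sets whose single symbol in the platform annotation was PSMA, PSMB, PSMC, PSMD, PSME, PSMF or PSMG with a number. PSMB8, PSMB9, PSMB10, PSME1 and PSME2, the subunits and activators of the immunoproteasome, were left out. This gave 40 probe sets for 34 genes, of 24016 probe sets tested and 9155 named genes. PSMB2, PSMC2, PSMC5, PSMC6, PSMD4 and PSMD6 had 2 probe sets each, and the one with the lower mean level is called the second. Of the 34 genes 26 code for subunits of the particle. The other 8 code for assembly chaperones (PSMD5, PSMD9, PSMD10, PSMG1, PSMG2 and PSMG3), for an activator (PSME4) and for an inhibitor (PSMF1).

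The proteasome degrades proteins that carry ubiquitin chains. Its core is a barrel of stacked rings, in which the outer alpha rings gate the entrance and the inner beta rings hold the proteolytic sites. A regulatory cap binds the ubiquitin chain, removes it, and unfolds and feeds the substrate through a ring of ATPases. Under interferon the proteolytic beta subunits are replaced in new particles by those of the immunoproteasome, which serves antigen presentation, and the ruminant endometrium meets interferon tau from the conceptus before implantation.

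Strips of endometrium gave RNA by Trizol extraction, which was labelled and hybridised to 79 Affymetrix bovine arrays, each holding 1 sample. These fell into 16 groups of 5 biological replicates, except that the high progesterone cyclic group of day 7 held 4. Groups are called PH (pregnant, high progesterone), PN (pregnant, normal progesterone), CH (cyclic, high progesterone) and CN (cyclic, normal progesterone), each on day 5, 7, 13 or 16 of early pregnancy or of the estrous cycle. All animals were cross-bred beef heifers with a synchronized estrus, and pregnant heifers had been inseminated and their pregnancy verified. The high groups carried a progesterone-releasing device in the vagina from day 3 to slaughter, and the normal groups had none.

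Values are deposited log2 expression levels, and differences are given on the same log2 scale ± SE of the fit. Array medians lay between 4.71 and 5.12, and the number of arrays limits the precision. A gene was called changed where limma's Benjamini-Hochberg adjusted p over all 24016 probe sets was under 0.05, and "rose" and "fell" are used in that sense. Counts of members at an unadjusted p under 0.05 only describe the members, since the share of all probe sets at that cut is not given. The endometrium label was checked against markers. The stromal DCN (14.04) and VIM (12.66) and the epithelial EPCAM (12.94) and KRT18 (10.02) were high in mean level. The stromal PDGFRB was low (4.06), the epithelial KRT8 was near the floor (2.23), and all 5 red blood cell genes were near the floor too. Smooth muscle markers were high on 3 arrays (PN replicate 4 on day 5, PH replicate 5 on day 7 and PH replicate 4 on day 13). A narrow distribution set 2 arrays apart (CH replicate 3 on day 7 and PH replicate 1 on day 13). Far from their group mean lay 5 arrays (CH replicate 3 on day 5, CN replicate 5 and CH replicate 3 on day 7, PH replicates 1 and 4 on day 13). In such bulk tissue, fewer cells of a type and less RNA per cell cannot be told apart.

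The mean of the 39 member probe sets with a mean level of at least 6 was 9.74 ± 0.14 on day 5 (SD, n = 20), 9.49 ± 0.12 on day 7 (n = 19), 9.37 ± 0.12 on day 13 (n = 20) and 9.49 ± 0.19 on day 16 (n = 20). The second PSMC5 probe set, with a mean of 2.16, lay near the floor, where a change cannot be seen. For 34 of the 40 probe sets the highest of the 16 group means was on day 5, and for 19 the lowest was on day 13. The shares of all probe sets with their highest or lowest group mean on these days were not counted. The range of group means had a median of 0.73 over the members, against 0.90 over the 9992 probe sets with a level of at least 6. As a description over the 16 group means, 27 members had a Pearson correlation of at least 0.7 with the mean of the other members and 37 a positive one. These points share their arrays and normalization. The 3 negative ones were the second PSMD6 probe set (-0.76), the activator PSME4 (-0.62) and the inhibitor PSMF1 (-0.26).

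**Figure D1:**
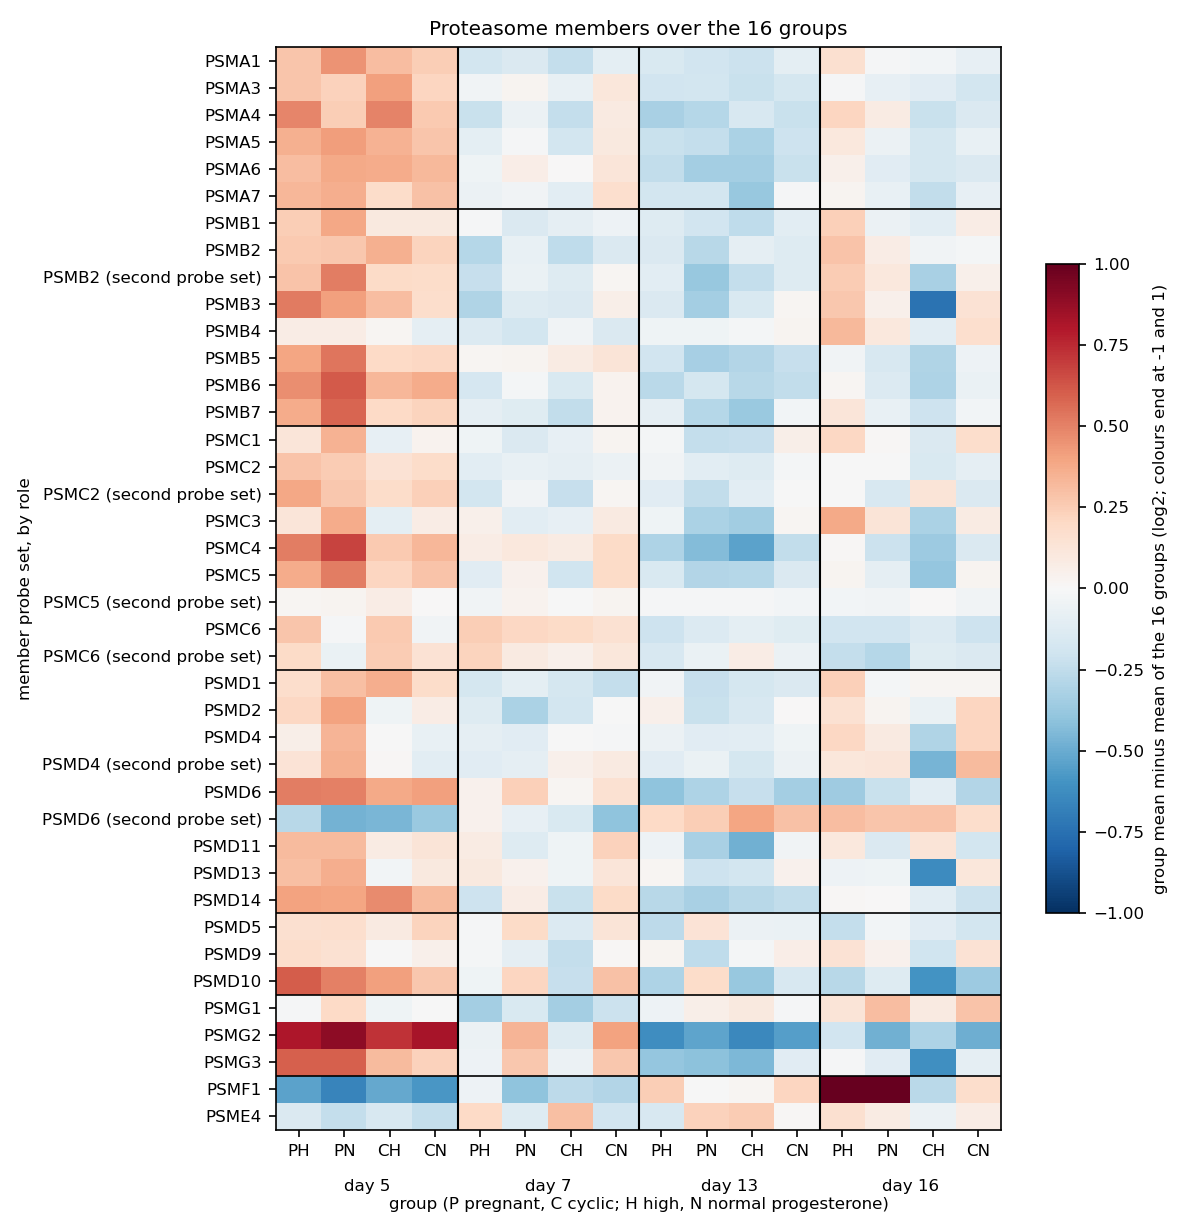
Group means of the 40 member probe sets, each minus its own mean over the 16 groups, on the log2 scale (colours end at -1 and 1). Rows are ordered by role and columns by day, with PH, PN, CH and CN inside each day. Most rows are red on day 5 and blue on day 13. The second PSMD6 probe set and PSMF1 run the other way, as does PSME4 in its day means. PSMF1 is reddest in the pregnant groups of day 16.

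From day 5 to day 7 most probe sets of the core and its assembly chaperones fell in the mean of the 4 arms. In CN alone no member was called. With the 4 arms weighted equally, 26 members fell and 2 rose, against 11.8% of all probe sets that fell and 8.84% that rose (20.7% in either direction). The members' median difference was -0.30, and that of all probe sets 0.01. All 6 alpha ring probe sets fell (median -0.35), as did 7 of 8 of the beta ring (-0.42) and all 3 of the core's assembly chaperones (-0.33). In the cap 4 of 9 ATPase probe sets (-0.16) and 4 of 9 of the non-ATPase subunits (-0.18) fell. Of the cap's assembly chaperones 2 of 3 fell, PSMD10 (gankyrin) by 0.39 ± 0.10 and PSMD9 by 0.17 ± 0.06. The PSMD9 call (limma adjusted p = 0.0409) was lost in 19 of 39 omissions of a single array and in 7 of 14 other settings.

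The genes of the 3 proteolytic subunits all fell. PSMB5, the chymotrypsin-like subunit, had levels of 10.37, 10.69 and 11.09 (lowest, median and highest) on day 7, against 10.52, 10.93 and 11.42 on day 5. PSMB6, the caspase-like subunit, had 9.29, 9.57 and 10.16 on day 7, against 9.58, 10.07 and 10.56 on day 5. PSMB7, the trypsin-like subunit, had 9.31, 9.73 and 10.46 on day 7, against 9.47, 10.23 and 10.79 on day 5. All 3 genes overlapped between the days, with the day 7 median below the day 5 median in each. The differences were -0.27 ± 0.07 for PSMB5 (adjusted p = 0.00375), -0.52 ± 0.08 for PSMB6 (adjusted p = 6.14e-07) and -0.45 ± 0.08 for PSMB7 (adjusted p = 1.4e-05), all from limma. In PH, PN, CH and CN alone PSMB5 differed by -0.38, -0.51, -0.11 and -0.08 and was called in PN only. PSMB6 differed by -0.63, -0.62, -0.48 and -0.33 and was called in all arms but CN. PSMB7 differed by -0.45, -0.71, -0.45 and -0.19 and was called in PN only.

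PSMG2 fell more than any other member. It pairs with PSMG1 in a chaperone that helps the alpha ring to form. PSMG2 had levels of 8.97, 9.53 and 10.34 on day 7, against 9.85, 10.22 and 10.63 on day 5. On the log2 scale it fell by 0.67 ± 0.07 (limma adjusted p = 2.35e-10), and on the linear scale it fell by 37.2%. PSMA1, an alpha ring subunit, fell by 0.49 ± 0.08, and PSMA4 and PSMB3 fell by 0.48 ± 0.08 and 0.48 ± 0.13. PSMB2 fell by 0.47 ± 0.07 and its second probe set by 0.39 ± 0.08. PSMD14, the deubiquitinase of the cap, had levels of 10.01, 10.35 and 11.00 on day 7, against 10.50, 10.89 and 10.98 on day 5. It fell by 0.44 ± 0.06 (limma adjusted p = 1.59e-08), although its highest array was a CN array of day 7. In PH, PN, CH and CN alone PSMD14 differed by -0.62, -0.31, -0.71 and -0.12 and was called in PH and CH only. PSMG2 differed by -0.87, -0.55, -0.85 and -0.42 in these arms and was called in all but CN.

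The members that rose were the regulators outside the subunit groups. PSMF1, which inhibits the core in the test tube, rose by 0.32 ± 0.10 (limma adjusted p = 0.0191), and PSME4, which caps the core as an activator that needs no ubiquitin, rose by 0.24 ± 0.07 (limma adjusted p = 0.00898). In PH, PN, CH and CN alone PSME4 differed by 0.35, 0.11, 0.45 and 0.05 and was called in CH only. PSMF1 differed by 0.48, 0.26, 0.25 and 0.29 and was called in no single arm. The day 7 arrays with high progesterone also enter the progesterone comparison of that day, in which PSME4 rose and PSMD14 and PSMG2 fell. The arms did not give equal counts: 15 members fell in PH (background 3.1%), 14 in PN (2.47%), 14 in CH (8.36%) and none in CN (0.0291% called in either direction), where limma gave 8 members an unadjusted p under 0.05 and the median difference was -0.10. The difference between the arms was not tested. Macrophage markers moved with this step: 8 of 9 fell (median -0.74) and none was at the floor in mean level. Their summed level, as a list mean per array, lay between 5.71 and 7.92 on day 7 and between 6.14 and 10.14 on day 5, and their part in the result was not tested. Cell cycle genes also moved, with 17 of 19 lower and 1 higher (median -1.21), and 5 of 9 stromal and 2 of 8 smooth muscle markers fell. Of 8 epithelial markers 3 rose and 1 fell (median 0.16). The count of members was 29 without the 5 arrays far from their group mean, 31 without the 3 arrays high in smooth muscle markers and 27 without the 2 arrays of narrow distribution, against 28 with all arrays.

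**Figure D2:**
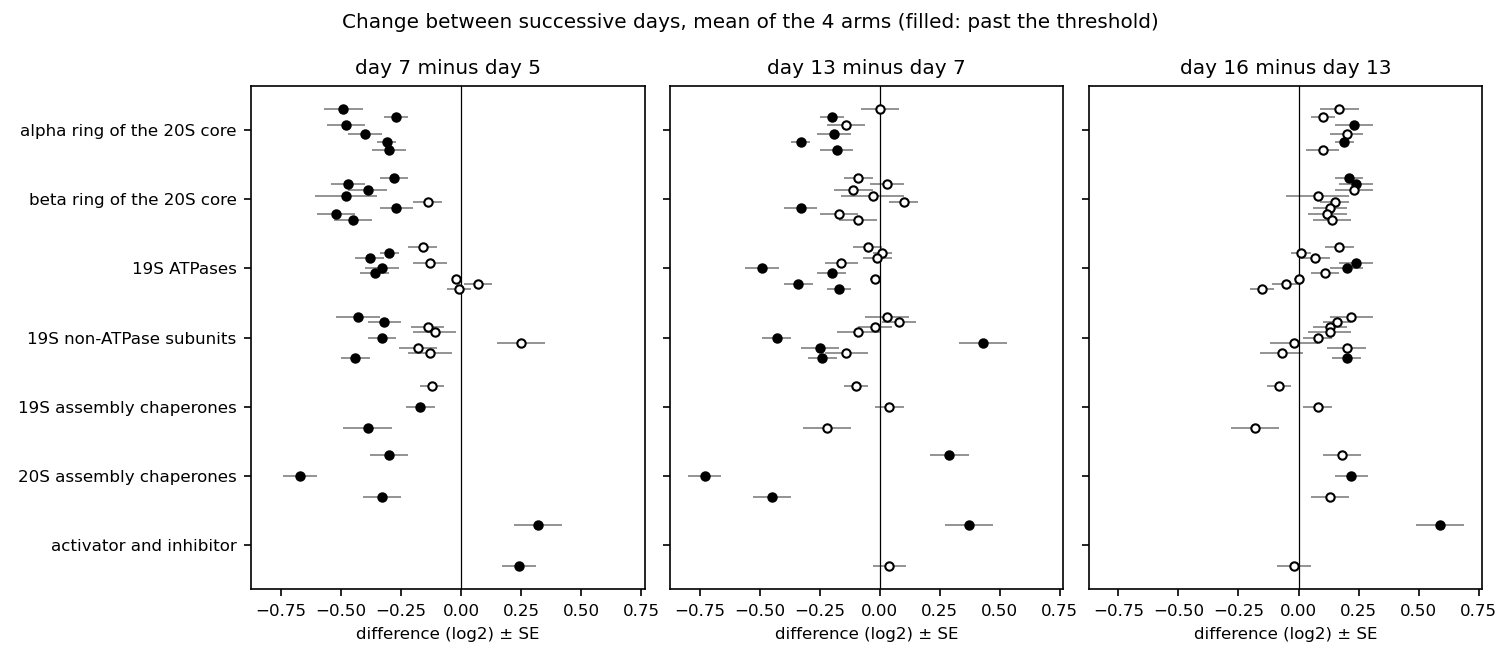
Differences of the 40 member probe sets between successive days (log2 ± SE, mean of the 4 arms), by role from top to bottom, with filled points past the threshold. The first panel holds 26 filled points left of 0 and 2 right of it, the second 14 and 3, and the third 0 and 9.

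From day 7 to day 13 the fall went on for fewer members. Here 14 of 40 fell and 3 rose, against 18.1% of all probe sets that fell and 18.8% that rose (36.9% in either direction). The median was -0.11 for the members and -0.01 for all probe sets. The arrays of day 7 enter both this step and the one before. By role 4 of 6 alpha ring, 1 of 8 beta ring, 4 of 9 ATPase and 3 of 9 non-ATPase probe sets fell, together with PSMG2 and PSMG3 of the core's chaperones, while none of the cap's chaperones passed the threshold.

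PSMG2 had levels of 8.53, 8.86 and 9.13 on day 13, against 8.97, 9.53 and 10.34 on day 7, so only the top of day 13 and the bottom of day 7 overlapped. It fell by 0.73 ± 0.07 (limma adjusted p = 2.3e-13). PSMG3, another chaperone of the core, fell by 0.45 ± 0.08. The ATPase PSMC4 had levels of 8.35, 8.75 and 9.08 on day 13, against 8.86, 9.26 and 9.65 on day 7, and fell by 0.49 ± 0.07 (limma adjusted p = 7.95e-09). The alpha subunit PSMA6 had 11.23, 11.48 and 11.71 on day 13, against 11.60, 11.78 and 11.99 on day 7, and fell by 0.33 ± 0.04 (limma adjusted p = 2.1e-10). In both genes the days overlapped, with the day 13 median below the lowest day 7 array.

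Of the proteolytic subunits PSMB5 fell by 0.33 ± 0.07, while PSMB6 (-0.17 ± 0.08) and PSMB7 (-0.09 ± 0.08) did not pass. PSMC6, an ATPase with no call in the step before, fell by 0.34 ± 0.06 and its second probe set by 0.17 ± 0.05. PSMF1 rose by 0.37 ± 0.10 (limma adjusted p = 0.00303). PSMG1, the partner of PSMG2, rose by 0.29 ± 0.08 (limma adjusted p = 0.00365), so the levels of the 2 partners moved in opposite directions in this step. Endothelial markers moved with the step, 7 of 9 higher and none lower (median 0.43). Their list mean per array lay between 5.69 and 6.58 on day 13 and between 5.27 and 5.98 on day 7, TIE1 and KDR were near the floor in mean level, and their part was not tested. Of the cell cycle genes 13 of 19 fell (median -1.10). Within single arms 5 of 40 members were called in PH (13.7% of all probe sets), 8 in PN (18.4%), 6 in CH (26.6%) and 7 in CN (16.2%). These single-arm counts stand near or below the shares of all probe sets.

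PSMD6, a subunit of the cap's lid, gave opposite results on its probe sets. The first fell by 0.43 ± 0.06 (limma adjusted p = 7.66e-09) and the second rose by 0.43 ± 0.10 (limma adjusted p = 0.000339) from day 7 to day 13. The first had levels of 7.90, 8.59 and 8.76 on day 13, against 8.55, 8.97 and 9.25 on day 7. The second had 6.08, 6.33 and 6.80 on day 13, against 4.83, 6.06 and 6.31 on day 7. The direction of the gene as a whole is therefore not settled by these values. Among the other genes with 2 probe sets, PSMC5 could not be compared because its second probe set lay near the floor.

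From day 13 to day 16 the direction turned in the mean of the 4 arms. Here 9 members rose and none fell, against 5.03% of all probe sets that rose and 3.62% that fell (8.65% in either direction), with 19 members at an unadjusted p under 0.05. The median was 0.13 for the members and 0.00 for all probe sets. PSMA4 rose by 0.23 ± 0.08, PSMA6 by 0.19 ± 0.04, PSMB1 by 0.21 ± 0.06, PSMB2 by 0.24 ± 0.07, PSMC3 by 0.24 ± 0.07, PSMC4 by 0.20 ± 0.07, PSMD14 by 0.20 ± 0.06 and PSMG2 by 0.22 ± 0.07. The calls of PSMA4, PSMC4 and PSMG2 were lost in 26, 24 and 13 of 40 omissions of a single array and in 8, 10 and 8 of 14 other settings. PSMB5 (0.13), PSMB6 (0.12) and PSMB7 (0.14) did not pass. Of all 9, PSMF1 had the highest difference, 0.59 ± 0.10 (limma adjusted p = 3.81e-05), and it was not shared by the arms: 1.48 ± 0.21 in PH and 1.21 ± 0.21 in PN, but -0.28 ± 0.21 in CH and -0.04 ± 0.21 in CN. Within single arms 3 members rose in PH, against a background of 2.66%, and 1 in PN (0.974%). None was called by limma in CH (0.333% in either direction) or in CN (0.666%). At an unadjusted limma p under 0.05 CH held 6, in both directions. PSMA6 (0.17), PSMD11 (0.60) and PSMG2 (0.34) were higher, and PSMB3 (-0.59), PSMD13 (-0.45) and PSME4 (-0.31) lower. CN held 1, the second PSMD4 probe set (0.37). The mean of the 39 members with a level of at least 6 was 9.38, 9.33, 9.33 and 9.43 on day 13 in PH, PN, CH and CN. On day 16 it was 9.63, 9.52, 9.32 and 9.50. Without the 5 arrays far from their group mean 5 members rose and 1 fell, and without the 3 arrays high in smooth muscle markers 6 rose.

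Most members were lower on day 16 than on day 5. Between day 16 and day 5, a comparison added after the data were seen, 28 members were lower and 3 higher, against 22.8% and 23.3% of all probe sets (46% in either direction). The median was -0.31 for the members and 0.00 for all probe sets. PSMG2 had levels of 8.70, 9.07 and 9.60 on day 16, against 9.85, 10.22 and 10.63 on day 5, and its difference was -1.18 ± 0.07 (limma adjusted p = 5.23e-23), or -55.8% on the linear scale. The first PSMD6 probe set had 8.19, 8.62 and 8.95 on day 16, against 9.0, 9.30 and 9.62 on day 5, with a difference of -0.69 ± 0.06. These 2 members did not overlap between the days, as did 2.11% of all probe sets in the same direction. PSMD10 (-0.79 ± 0.10), PSMG3 (-0.64 ± 0.08), PSMC4 (-0.63 ± 0.07) and PSMB6 (-0.56 ± 0.08) were lower too, as were PSMB5 (-0.47 ± 0.07) and PSMB7 (-0.40 ± 0.08). The higher ones were PSMF1 (1.28 ± 0.10), the second PSMD6 probe set (0.66 ± 0.10) and PSME4 (0.26 ± 0.07). The other 9 members, PSMB4, PSMC1, PSMC3, PSMD1, PSMD2, both PSMD4 probe sets, PSMD9 and PSMG1, did not pass in either direction. The call of the second PSMC5 probe set (-0.05, limma adjusted p = 0.0451), which lay near the floor, was lost in 20 of 40 omissions of a single array. Markers moved between the same days: all 19 cell cycle genes were lower (median -2.21), as were 5 of 9 macrophage, 4 of 9 stromal and 4 of 8 smooth muscle markers, while 7 of 9 endothelial markers were higher, and of 8 epithelial markers 4 were higher and 2 lower. Their part in the result was not tested.

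**Figure D3:**
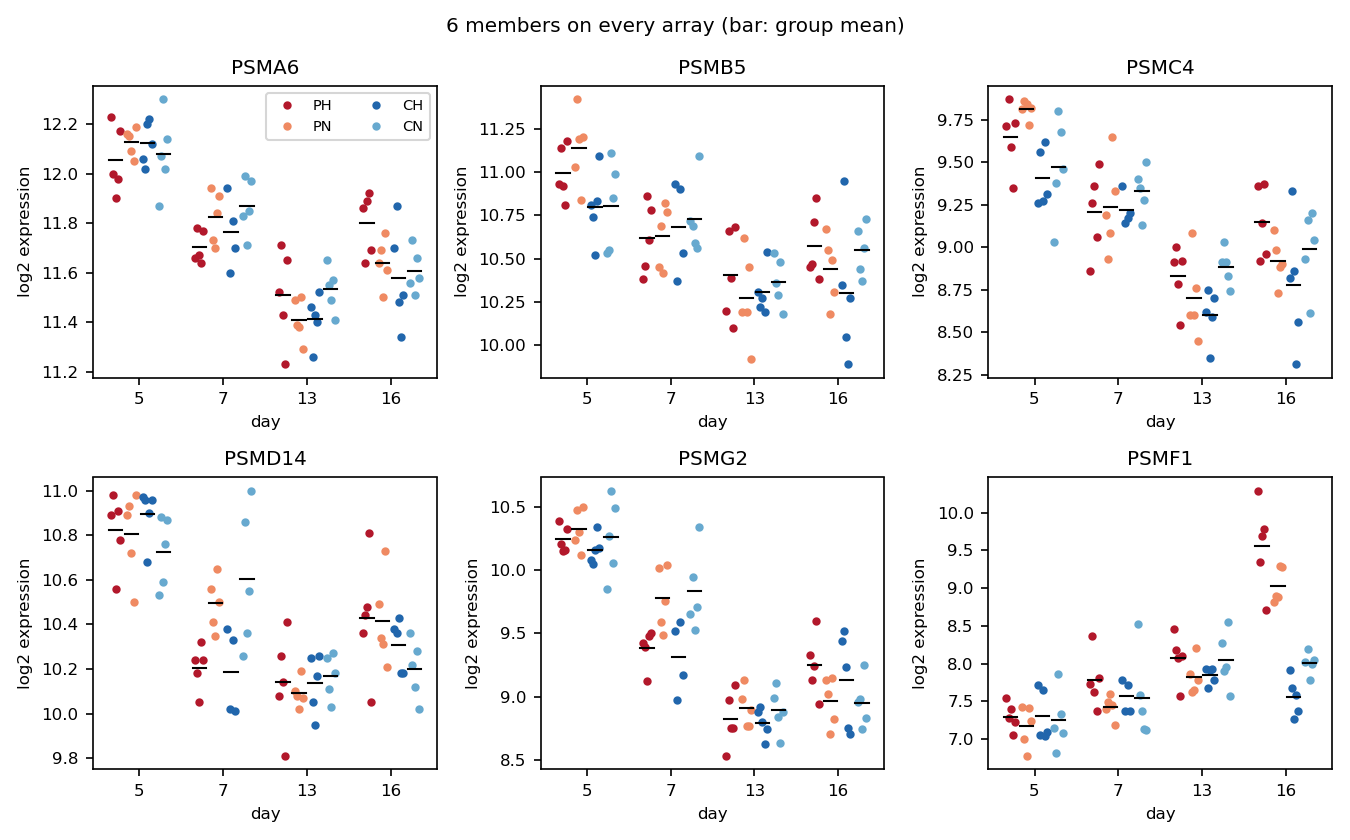
Log2 levels of 6 members on every array by day (5, 7, 13 and 16), with PH, PN, CH and CN from left to right inside a day and a bar at each group mean. PSMG2 falls to a median of 8.86 on day 13, and PSMF1 on day 16 lies between 8.71 and 10.29 in the pregnant groups and between 7.27 and 8.2 in the cyclic ones.

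Whether pregnancy changed these genes was asked on each day, as the mean of the differences at high and at normal progesterone. On day 16, of the members, 2 rose and none fell, against 2.13% of all probe sets that rose and 1.03% that fell (3.16% in either direction). The inhibitor PSMF1 had the larger difference of these 2. In PH heifers it had levels of 10.29, 9.34, 9.69, 9.78 and 8.71 and in PN heifers 8.82, 8.90, 8.88, 9.29 and 9.28. In CH heifers it had 7.91, 7.68, 7.27, 7.59 and 7.37 and in CN heifers 8.02, 8.2, 7.78, 8.0 and 8.05. Every pregnant array was above every cyclic one, as for 0.437% of all probe sets. The difference was 1.51 ± 0.15 (limma adjusted p = 5.96e-12), a 2.85-fold higher level, and by its size PSMF1 ranked 134 among the 512 probe sets that rose. The other member was PSMC3, an ATPase of the cap. PSMC3 had levels of 10.20, 10.57 and 10.95 in pregnant heifers, against 9.64, 10.23 and 10.60 in cyclic heifers, and rose by 0.38 ± 0.09 (limma adjusted p = 0.00996) with overlap between them. This is the mean of 0.70 with high progesterone and 0.06 with normal progesterone, where PSMC3 did not pass.

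On the earlier days the PSMF1 differences lay close to 0. The difference was 0.00 ± 0.15 on day 13, with 7.95 ± 0.30 in pregnant heifers (SD, n = 10) and 7.95 ± 0.28 in cyclic heifers (n = 10). It was 0.05 ± 0.15 on day 7 and -0.05 ± 0.15 on day 5. The effect on day 16 exceeded that on day 13 by 1.51 ± 0.21 (limma adjusted p = 3.69e-06), a comparison added after the data were seen, in which PSMF1 was the only member called, against 0.883% of all probe sets that were higher and 0.0916% that were lower (0.974% in either direction).

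The remaining members had smaller differences on day 16. In all 35 of 40 differences were positive, with a median of 0.13, against -0.02 over all probe sets, but 10 members had an unadjusted p under 0.05 and 2 passed adjustment. PSMB5 differed by 0.08 ± 0.10, PSMB6 by 0.13 ± 0.11 and PSMB7 by 0.14 ± 0.11, and PSMG2 by 0.07 ± 0.10. The mean of the 39 members with a level of at least 6 was 9.63 ± 0.13 in PH and 9.52 ± 0.12 in PN (SD, n = 5 each). It was 9.50 ± 0.08 in CN and lowest and most spread in CH, at 9.32 ± 0.26 (SD, n = 5 each). With high progesterone alone (PH over CH) 10 members rose, against 4.33% of all probe sets, among them PSMF1 (2.00 ± 0.21), PSMB3 (1.01 ± 0.26), PSMC3 (0.70 ± 0.13), PSMG3 (0.60 ± 0.16) and PSMB4 (0.42 ± 0.11). With normal progesterone alone (PN over CN) PSMF1 (1.02 ± 0.21) was the only one, against 0.608%. The interaction, which tests whether these 2 effects differ, called no member by limma, against 0.87% of all probe sets. At an unadjusted p under 0.05 there were 15 members, a count that only describes them. The interaction was 0.97 ± 0.29 for PSMF1 (limma adjusted p = 0.0804), 0.64 ± 0.19 for PSMC3 (limma adjusted p = 0.0752) and 0.64 ± 0.20 for PSMD4 (limma adjusted p = 0.103). These counts depended on the weight given to single arrays: with limma's array weights the main effect called 15 members (15.3% of all probe sets) and the interaction 20 (13.7%), and without CH replicate 2 of day 16 they called 6 (4.08%) and 9 (2.79%). Without CH replicate 1 the interaction called 6 (2.37%). The PSMC3 call was lost in a fit of the day 16 arrays alone and with normal progesterone alone (0.06).

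Markers of other cells moved with pregnancy on day 16. Of the macrophage markers 3 of 9 rose (C1QC, C1QB and FCER1G), with list means per array between 5.99 and 7.43 in pregnant heifers and between 5.82 and 7.45 in cyclic heifers. Of the endothelial markers 3 of 9 fell, with list means between 5.57 and 6.36 in pregnant heifers and between 5.68 and 6.61 in cyclic heifers. The collagen genes COL1A2 and COL3A1 fell among 9 stromal markers, and CLDN4 rose among 8 epithelial markers. Their part in the PSMF1 and PSMC3 results was not tested.

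All immunoproteasome genes but PSMB10, which are no members, rose on the same day in the mean of both progesterone levels. PSMB8 rose by 0.81 ± 0.22 (limma adjusted p = 0.0232), PSMB9 by 0.76 ± 0.21 (limma adjusted p = 0.0261), and the activator subunits PSME1 by 0.49 ± 0.11 and PSME2 by 0.68 ± 0.13. PSMB10 differed by 0.54 ± 0.21 and did not pass (limma adjusted p = 0.177). The interaction is positive where the pregnancy effect was larger with high progesterone. It was 1.26 ± 0.44 for PSMB8, 0.87 ± 0.42 for PSMB9 and 1.16 ± 0.42 for PSMB10. For PSME1 and PSME2 it was 0.44 ± 0.23 and 0.30 ± 0.26. None of these interactions passed, and the smallest limma adjusted p was 0.15. Each replacement subunit was set against the member it replaces within an array, and the difference between pregnant and cyclic heifers was tested two-sided by exact permutation within progesterone levels. PSMB9 minus PSMB6 averaged -0.42 ± 0.46 in pregnant heifers and -1.05 ± 0.37 in cyclic heifers (SD, n = 10 each), a difference of 0.63 (exact permutation p = 0.00022, adjusted p = 0.00265 over 12 tests). PSMB8 minus PSMB5 averaged -0.86 ± 0.66 in pregnant and -1.59 ± 0.45 in cyclic heifers, a difference of 0.73 (permutation, adjusted p = 0.0509). PSMB10 minus PSMB7 averaged -0.95 ± 0.35 in pregnant and -1.35 ± 0.27 in cyclic heifers, a difference of 0.40 (permutation, adjusted p = 0.0509). The other 9 tests, on days 5, 7 and 13, had adjusted p of at least 0.185 by the same permutation. High and normal progesterone were not tested apart for these within-array differences. Only changes of such a difference can be read, since 2 probe sets do not share a scale.

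**Figure D4:**
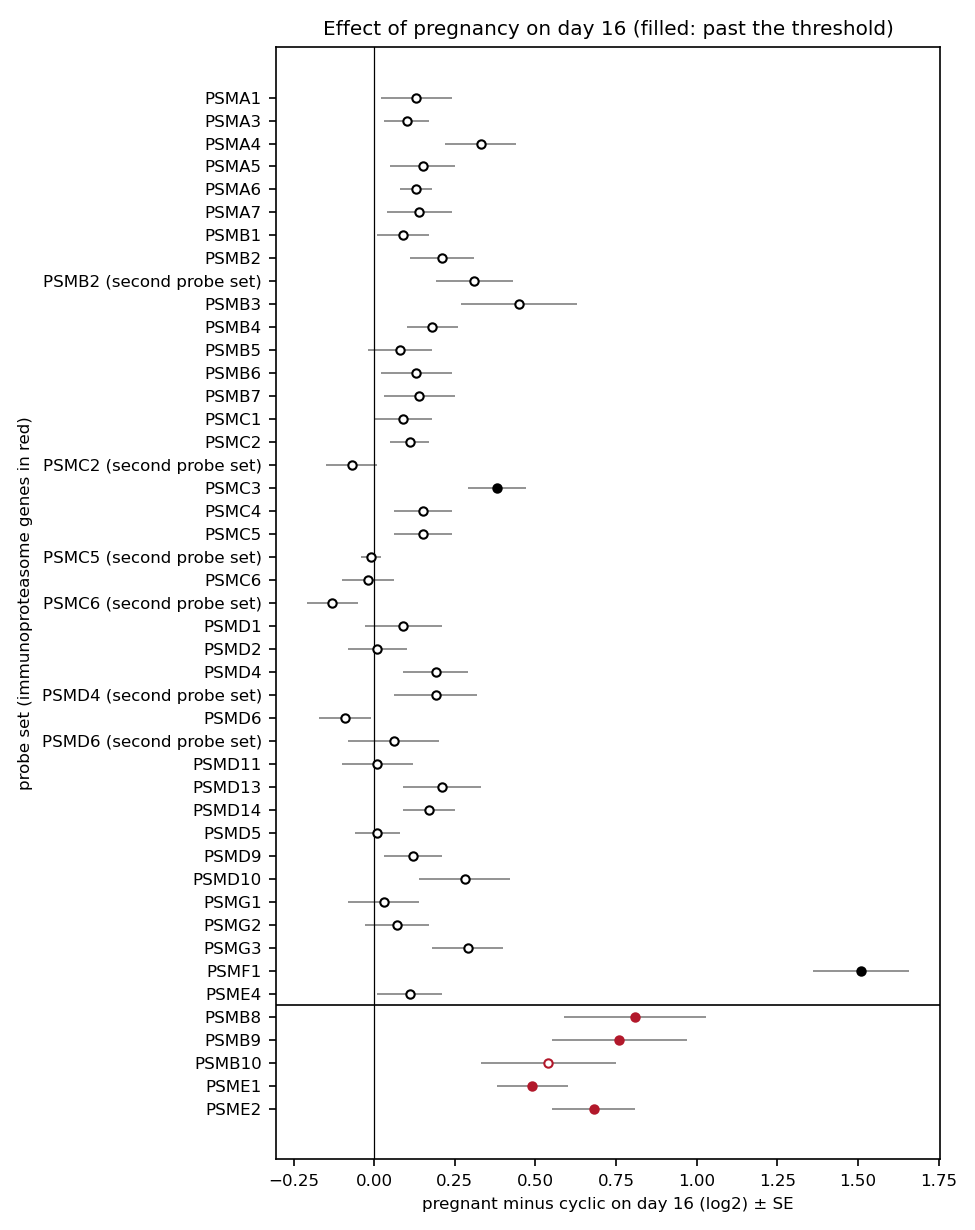
Pregnant minus cyclic differences on day 16 (log2 ± SE) for the 40 member probe sets in black and the 5 immunoproteasome genes in red, with filled points past the threshold. PSMF1 stands apart at 1.51, PSMC3 is filled at 0.38, and the other members lie closer to 0 than PSMB8 (0.81) and PSMB9 (0.76).

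**Figure D5:**
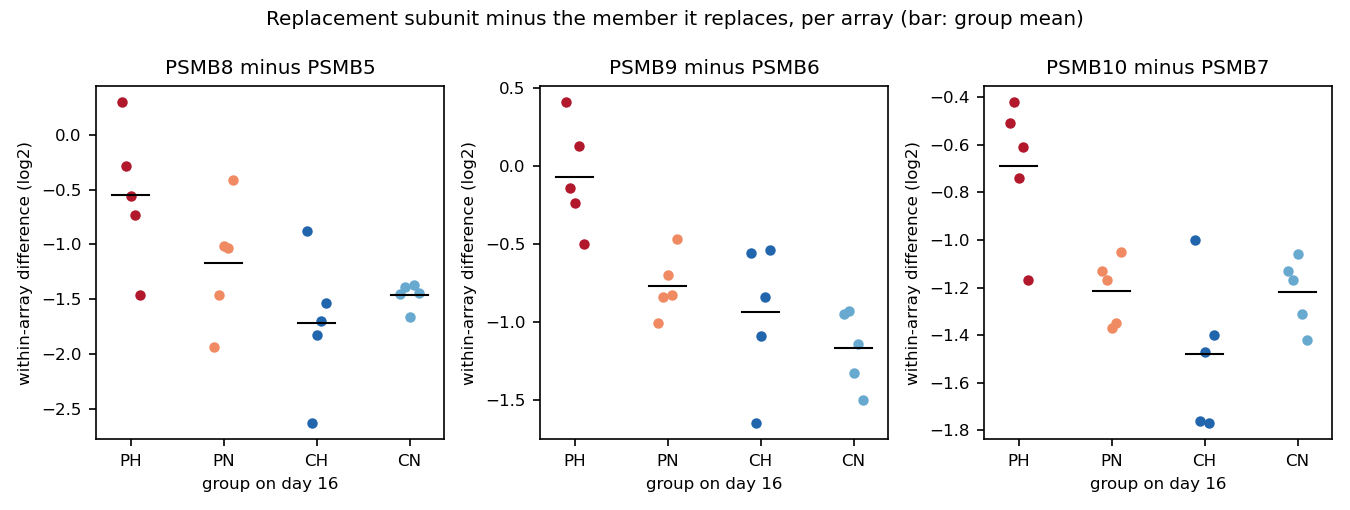
Within-array differences on day 16 (log2) of PSMB8 minus PSMB5, PSMB9 minus PSMB6 and PSMB10 minus PSMB7, with a point per array and a bar at the mean of PH, PN, CH and CN, from left to right. In each panel the PH mean is the highest of the 4, and the pregnant minus cyclic differences are 0.73, 0.63 and 0.40.

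On the earlier days no member passed for pregnancy. On day 5 limma called none, against 0.0167% of all probe sets. At an unadjusted p under 0.05 there were 12 members, a count that only describes them. In all 32 of 40 differences were positive, with a median of 0.11, against -0.02 over all probe sets. PSMD2, a scaffold of the cap, differed by 0.29 ± 0.09 (limma adjusted p = 0.247), PSMC4 by 0.29 ± 0.09 and PSMC1 by 0.26 ± 0.09. PSMB5 differed by 0.26 ± 0.10, PSMB6 by 0.18 ± 0.11 and PSMB7 by 0.26 ± 0.11. On days 7 and 13 limma called no member and no probe set (0%), and no member had an unadjusted p under 0.05. The members with the smallest p were the second PSMD6 probe set (0.27 ± 0.14), the second PSMD4 probe set (-0.18 ± 0.13) and PSMD2 (-0.13 ± 0.09) on day 7. On day 13 they were the second probe sets of PSMC2 (-0.13 ± 0.08) and PSMC6 (-0.12 ± 0.08) and PSMD9 (-0.14 ± 0.09). PSMB5, PSMB6 and PSMB7 differed by between -0.08 and 0.04 on these days.

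With high progesterone 1 member rose and 2 fell on day 7, against 1.85% of all probe sets that rose and 2.84% that fell (4.7% in either direction). PSMG2 had levels of 9.42, 9.39, 9.12, 9.48 and 9.50 in PH heifers and 10.02, 9.59, 9.49, 9.76 and 10.04 in PN heifers. It had 9.52, 8.97, 9.59 and 9.17 in CH heifers and 9.65, 9.95, 9.53, 9.71 and 10.34 in CN heifers. The high groups were lower in both pairs, with overlap, and PSMG2 fell by 0.46 ± 0.10 (limma adjusted p = 0.00278). PSMD14 had levels of 10.01, 10.24 and 10.38 with high progesterone, against 10.26, 10.52 and 11.00 with normal, and fell by 0.35 ± 0.08 (limma adjusted p = 0.00364). PSME4 had 8.67, 9.18 and 9.58 with high progesterone, against 8.62, 8.76 and 8.81 with normal, and rose by 0.41 ± 0.10 (limma adjusted p = 0.00754). The normal arrays of PSME4 lay close together while the high ones were spread. PSMB5 (-0.03 ± 0.10), PSMB6 (-0.17 ± 0.11) and PSMB7 (-0.12 ± 0.11) did not pass. Cell cycle genes fell in 13 of 19 cases in the same comparison (median -1.13). A fit of the day 7 arrays alone called none of these 3 members, pregnant heifers alone gave none (0.525% of all probe sets), array weights gave 1, and 6 were called without CH replicate 2 (6.11%).

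On day 5 high progesterone raised PSMC6, which had a mean of 11.23 ± 0.12 with high and 10.93 ± 0.13 with normal progesterone (SD, n = 10 each), a difference of 0.30 ± 0.08 (limma adjusted p = 0.0461). The background was 0.908%, the second PSMC6 probe set did not pass (0.19 ± 0.08), and the call was lost on leaving out any 1 of 16 of the 20 arrays. PSMB5, PSMB6 and PSMB7 differed by between -0.12 and -0.07 on day 5, between -0.07 and 0.04 on day 13 and between -0.06 and 0.01 on day 16, and none passed. On day 13 limma called no member, against 0.441% of all probe sets, with 2 at an unadjusted p under 0.05, PSMD5 (-0.19 ± 0.07) and PSMD10 (-0.35 ± 0.14), and PSMA7 was next (-0.18 ± 0.10). On day 16 it called none, against 0.0958%, with 5 at an unadjusted p under 0.05, led by the second probe set of the ubiquitin receptor PSMD4 (-0.39 ± 0.13), by PSMD13 (-0.37 ± 0.12) and by the second PSMC2 probe set (0.21 ± 0.08). In cyclic heifers alone 4 members fell with high progesterone on day 16, against 1.62% of all probe sets: both PSMD4 probe sets (-0.52 ± 0.14 and -0.78 ± 0.18), PSMB3 (-0.88 ± 0.26) and PSMD13 (-0.74 ± 0.18). The interactions of days 5, 7 and 13 called no member, against 0%, 0.025% and 0.0208% of all probe sets. The members with the smallest unadjusted p were PSMD4 (-0.35 ± 0.20 and -0.33 ± 0.25 on its second probe set) and the second PSMC5 probe set (-0.08 ± 0.06) on day 5. On day 7 they were PSMD11 (0.49 ± 0.22), PSMD2 (0.37 ± 0.19) and PSMD9 (0.31 ± 0.18), and on day 13 PSMC3 (0.66 ± 0.19), PSMD11 (0.71 ± 0.22) and PSME4 (-0.62 ± 0.20). The smallest limma adjusted p among the members was 1.0, 0.218 and 0.17 on these days. The interactions of PSMB5, PSMB6 and PSMB7 lay between -0.19 and 0.54 on these days and were 0.38 ± 0.20, 0.40 ± 0.22 and 0.38 ± 0.22 on day 16.

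Genes that work with the proteasome were followed beside it, in lists whose counts were not tested against other genes. Of all probe sets 8.84% rose and 11.8% fell in the first step (day 5 to day 7), 18.8% rose and 18.1% fell in the second (day 7 to day 13), and 5.03% rose and 3.62% fell in the third (day 13 to day 16). Of 10 partners and assembly factors 2 fell from day 5 to day 7, the cap's deubiquitinases UCHL5 (-0.32 ± 0.06) and USP14 (-0.30 ± 0.05). From day 7 to day 13 UBLCP1, a phosphatase of the cap, UBE3C and POMP, the maturation factor of the core, fell by 0.48 ± 0.06, 0.28 ± 0.08 and 0.17 ± 0.05, while FBXO7, which binds PSMF1, rose by 0.49 ± 0.06. From day 13 to day 16 USP14 rose by 0.19 ± 0.05. The counts of 2, 4 and 1 of 10 called in these steps stand near the shares of all probe sets called (20.7%, 36.9% and 8.65%). Of 10 regulators of proteasome genes NFE2L1, the factor that induces subunit genes when proteasome activity is short, rose by 0.28 ± 0.07 from day 7 to day 13 and by 0.22 ± 0.07 from day 13 to day 16. FOXO4 rose by 0.54 ± 0.15 from day 5 to day 7 and by 1.60 ± 0.15 from day 7 to day 13, whereas NFE2L2 fell by 0.33 ± 0.06 and NFYB by 0.23 ± 0.06 from day 5 to day 7. In all, 1 regulator rose and 2 fell in the first step, 5 rose in the second and 1 in the third.

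Chaperone, ubiquitin and ER stress genes were counted in the same way. Of 17 cytosolic chaperones 12 fell from day 5 to day 7 (median -0.31), led by the chaperonin subunits CCT6A (-0.59 ± 0.09) and CCT5 (-0.49 ± 0.09). From day 7 to day 13 3 rose and 5 fell, beside 18.8% and 18.1% of all probe sets, and from day 13 to day 16 12 rose and none fell (median 0.28), led by HSPH1 (0.73 ± 0.14) and DNAJB1 (0.68 ± 0.15). Of 14 genes for ubiquitin, its activation and its carriers 6 fell in the first step, 2 rose and 7 fell in the second, and 1 rose in the third, where 5.03% of all probe sets rose. UBE2N, a ubiquitin-conjugating enzyme, fell by 0.48 ± 0.10 and 0.77 ± 0.10 in the first and second steps. Of 25 genes of ER stress and ER-associated degradation 1 rose and 11 fell, 4 rose and 19 fell, and 3 rose and 1 fell in these steps, with CRELD2 lower by 0.58 ± 0.14 and 1.55 ± 0.14 in the first and second. With pregnancy on day 16 none of these lists had a member past the threshold.

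The 5 named genes outside the members whose profile over the 16 group means was most like the members' mean profile were PPP1CA (Pearson r = 0.957), PRELID1 (0.953), LSM7 (0.953), MRPL55 (0.952) and RPS19BP1 (0.951). PPP1CA is a catalytic subunit of protein phosphatase 1, LSM7 a protein of RNA decay and splicing particles and MRPL55 a mitochondrial ribosomal protein. These points come from the same 79 arrays and share their normalization.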

How the data were processed

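The authors deposited log2 expression values per probe set, with 1 column for each of the 79 arrays. RMA, GCRMA and limma are named, with no version, in the submitters' processing notes. Which of the first pair made the values is not given in the sources used here, so the background correction of low values is unknown. Of 24128 probe sets 112 Affymetrix controls were left out. Symbols came from the platform annotation, in which 13292 probe sets had 1 symbol, 86 had several and 10638 had none here. All 34 gene identifiers of the members carried the same symbol in a current cattle gene table. No genome or probe sequences were used here, so what each probe set binds was not checked.

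One limma fit (version 3.58.1, run in R 4.3.3 beside statmod 1.5.0) estimated the means of the 16 groups from the 79 arrays, which left 63 residual degrees of freedom. It gave 15 planned comparisons and 2 added later: pregnancy, progesterone and their interaction on each day, the steps between days (4 arms weighted equally), day 16 over day 5, and the change of the pregnancy effect. Within-array subunit differences were tested by exact permutation over 63504 relabellings (31752 on day 7). Arrays of 1 replicate number on a day were not alike (mean correlations of deviations 0.0294, 0.0441, 0.0228 and -0.00919 on days 5, 7, 13 and 16), so the numbers were not treated as pairs. The labels call the arrays of a group biological replicates. Arrays of a group correlated at 0.954 to 0.993, and none were identical.

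The text names members past the threshold (at most 8 in each direction per comparison, and others in passing) and the 3 with the smallest p where none passed. PSMB5, PSMB6 and PSMB7 are given in every comparison but the change of the pregnancy effect (as a range in most comparisons where none of them passed). Also named are the immunoproteasome genes, up to 3 changed genes per pathway list and the 5 genes most like the members. The members, the 14 lists (159 genes measured) and the tests were chosen with earlier results of these data known. The alternatives tried were quantile normalization, median centring, fits of single days or pairs of days, a replicate block, array weights, robust moderation with a trend, the brighter probe sets, single arms, and omission of single arrays or of arrays that stood apart. The fit was tested on simulated data. Tables were made with pandas 2.3.3 and plots with matplotlib 3.10.9, under Python 3.11.15.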

Additional observations from a re-analysis of the deposited data

Results flagged for a closer look

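PSMF1 stood out because its pregnancy effect was not the same on both late days: it was larger on day 16 than on day 13 by 1.51 ± 0.21 in a test of that difference (limma adjusted p = 3.69e-06). For 11 quantities, each array was set against the others of its group, 176 groups in all, and 2 arrays lay far from the rest, where chance gives about 1 in 20 groups. PSMD14 was 10.68 in CH replicate 3 of day 5, against 10.90 to 10.97 in the other CH arrays of that day. PSME4 was 8.71 in PH replicate 5 of day 16, against 9.06 to 9.20 in the other PH arrays.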

How the results depend on the processing

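For pregnancy on day 16 the count of members called (2) was 1 in a fit of that day alone, 15 with array weights (15.3% of all probe sets), 10 with high (7.78%) and 1 with normal (0.658%) progesterone alone. For progesterone on day 7 the count (3) was 0 in a fit of that day alone (0.929%), 1 with array weights (3.69%) and 0 in pregnant heifers alone. For progesterone on day 5 the count (1) was 0 under quantile normalization, trend and robust moderation, the replicate block, omission of the arrays high in smooth muscle markers, and in pregnant or cyclic heifers alone. For progesterone on day 16 the count (0) was 9 with array weights (2 higher, 7 lower), 2 without the arrays of narrow distribution, 2 without those far from their group mean, and 4 in cyclic heifers alone, where 23.9%, 7.1%, 7.35% and 2.92% of all probe sets were called. With array weights the interactions called 9 on day 13 (6.42%) and 20 on day 16 (13.7%), and the change of the pregnancy effect 4 (2.85%). The replicate block changed no other count of members by over 1.5 times. The cause of these moves was not tested. The single arms of the day steps hold fewer arrays and called fewer: in PH, PN, CH and CN 15, 14, 15 and 0 from day 5 to day 7, 5, 8, 6 and 7 from day 7 to day 13, and 3, 1, 0 and 0 from day 13 to day 16.

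Of the 92 changes called for single members, 6 values turned sign in a single arm: from day 5 to day 7 PSMD10 (0.01) and PSMG3 (0.04) in CN, from day 7 to day 13 the second PSMC6 probe set in CH (0.02), and from day 13 to day 16 PSMA4 in CH (-0.06) and PSMF1 in CN (-0.04) and CH (-0.28). Leaving out each array in turn gave 27 to 30 members from day 5 to day 7, 15 to 19 from day 7 to day 13, 6 to 12 from day 13 to day 16 and 30 to 33 between day 16 and day 5. It gave 0 to 0 for pregnancy on days 5, 7 and 13, 2 to 6 on day 16 and 1 to 1 for the change of the effect. It gave 0 to 1, 3 to 6, 0 to 0 and 0 to 2 for progesterone on days 5, 7, 13 and 16, and 0 to 0, 0 to 1, 0 to 0 and 0 to 9 for the interactions. The upper ends 6 for pregnancy on day 16, 2 for progesterone on day 16 and 9 for its interaction came without CH replicate 2 of that day (4.08%, 0.824% and 2.79% of all probe sets), and 6 and 1 on day 7 without CH replicate 2 of that day (6.11% and 10.3%). The within-array differences ranged from 0.62 to 0.85 (PSMB8 minus PSMB5), from 0.54 to 0.69 (PSMB9 minus PSMB6) and from 0.36 to 0.46 (PSMB10 minus PSMB7). The first passed the threshold in 6 of 20 omissions and the last in 5. PSMF1 with pregnancy on day 16 passed in all 12 settings and all 20 omissions (1.02 to 2.00). Signal over background limits the second PSMC5 probe set, and the second PSMD6 probe set, down to 4.61, is low.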

Other observations

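The 5 named genes whose 16 group means were most like those of PSMF1, a list made after the values were seen, were TMEM140 (Pearson r = 0.973), PARP12 (0.969), RBM43 (0.959), UBE2L6 (0.955), the conjugating enzyme of the ubiquitin-like protein ISG15, and LOC510377 (0.951). With pregnancy on day 16 they rose by 2.11, 2.01, 1.43, 1.75 and 1.62 in that order. The genes were picked on the same group means, in which PSMF1 was highest in PH of day 16. Such rises were therefore built into the choice and are no separate result. From day 5 to day 7, where PSMF1 rose by 0.32 ± 0.10, none of the 5 passed the threshold (differences between -0.08 and 0.20). From day 7 to day 13 all 5 rose, TMEM140 by 0.77, PARP12 by 0.68, RBM43 by 0.46, UBE2L6 by 0.73 and LOC510377 by 0.59, beside 0.37 ± 0.10 for PSMF1. All these values come from the same 79 arrays and from the group means that picked the genes.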
